A study of Mus musculus with 14 samples.

Results

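The 36 mouse genes described here carry the symbols of proteasome subunits, 16 of the 20S core (Psma and Psmb genes) and 20 of the 19S regulatory particle (Psmc and Psmd genes), and are called subunits below. Most encode constitutive subunits, but Psma8 and Psmb11 encode forms restricted to testis and thymus, and Psmd5, Psmd9 and Psmd10 encode assembly chaperones. They were taken from the 18194 genes of the array by symbol, as every probe set with a single annotated symbol made of Psma, Psmb, Psmc or Psmd and a number, leaving out Psmb8, Psmb9 and Psmb10 of the immunoproteasome. The rule uses no measured value. The genes had 74 of the 45101 probe sets on the array, of which 30 belonged to the 20S core and 44 to the 19S particle.

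Left ventricular RNA of male C57BL/6 mice was measured on 14 arrays in 4 groups. TAC KO (4 arrays) were Hspb8 knockout hearts after 3 days of transverse aortic constriction (TAC), in which a band on the aortic arch raises the load on the left ventricle. TAC WT (4 arrays) were wild-type hearts after the same 3 days, basal KO (3 arrays) were knockout hearts without overload, and basal WT (3 arrays) were wild-type hearts without overload. Hspb8 encodes the small heat shock protein Hsp22, a chaperone abundant in heart muscle. Which part of Hspb8 was removed, in which cells, and how old the mice were is not stated in the sources used here, and no group is labelled as sham-operated. The labels do not tie arrays to separate animals, and p-values then measure only the spread between these samples, which may be technical.

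The proteasome is the cell's main machine for degrading proteins marked with ubiquitin. The 20S core is a barrel of stacked rings: outer alpha rings that gate the entry and inner beta rings that carry the proteolytic sites. The 19S particle caps the barrel, where its ATPase ring (the Psmc proteins) unfolds the substrate and pushes it into the core, and its non-ATPase subunits (the Psmd proteins) bind ubiquitin, remove it and hold the complex together. In heart muscle the proteasome turns over damaged and sarcomeric proteins, and NRF1 (the product of Nfe2l1) is known to raise transcription of its subunit genes through antioxidant response elements (ARE) when proteasome activity is short.

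The ARE core, written TGACNNNGC or, on the other strand, GCNNNGTCA, was searched for in promoter windows from RefSeq (GRCm38.p6), each holding 250 bases before a gene's start site and 50 from it on, because it is the element through which subunit genes are known to be raised together. Windows were found for 29 of the 36 genes, and 5 of their 31 promoters (16.1%), of 5 different genes, held the core, beside 12.4% of all 32851 promoters. The stretches below are read 5′ to 3′ on the strand of the gene, with the matched letters in capitals, and hold only bases before the start site used for the window. They lie at chr14:54618014-54618062 (minus strand) for Psmb5, chr11:70525328-70525356 (plus strand) for Psmb6, chr14:45329577-45329625 (plus strand) for Psmc6, chr11:107479278-107479309 (plus strand) for Psmd12 and chr5:123228139-123228187 (plus strand) for Psmd9.
Psmb5: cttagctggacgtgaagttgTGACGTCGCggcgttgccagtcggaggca
Psmb6: cagaggcggactaaagagagTGACGGAGC
Psmc6: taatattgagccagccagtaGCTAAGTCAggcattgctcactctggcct
Psmd12: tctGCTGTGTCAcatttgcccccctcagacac
Psmd9: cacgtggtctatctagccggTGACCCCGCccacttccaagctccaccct
The core of Psmb6 ended 1 base before the start site of its window, and those of Psmd9 and Psmb5 ended 23 and 39 bases before theirs. Those of Psmc6 and Psmd12 lay on the other strand and ended 219 and 239 bases before the start. The annotated Psmb6 gene begins further upstream, at chr11:70525324, so the Psmb6 stretch lies inside the gene. Counted by gene, none of the 7 alpha subunit genes with a window held the core, against 2 of 5 beta subunit genes, 1 of 5 ATPase genes and 2 of 12 non-ATPase genes. The CCAAT box, written CCAAT or ATTGG, was held by 12 of the 31 promoters (38.7%), beside 37.4% of all promoters, and by 5 of the 7 alpha subunit genes (Psma1, Psma2, Psma3, Psma6 and Psma7). No gene held both motifs. A match is a description of letters in this window and was not tested for binding.

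Array medians lay between 5.7 and 5.8 on the log2 scale and upper quartiles between 7.57 and 7.84. Within groups, arrays correlated across genes, which are not independent replicates, with r of 0.986 to 0.995 in TAC KO, 0.967 to 0.993 in TAC WT, 0.990 in basal KO and 0.989 to 0.990 in basal WT. The genotype labels were checked on Hspb8: one of its 3 probe sets read 4.27 to 5.02 in TAC KO and 11.09 to 12.29 in TAC WT, and 4.40 to 5.13 in basal KO and 11.29 to 11.99 in basal WT. The KO minus WT difference of a further probe set was -5.29 after TAC and -5.48 in basal hearts, and that of the probe set whose class can bind other transcripts was -0.60 and -1.08 (limma adjusted p = 0.304 and 0.194). Basal and TAC arrays lie in different runs, per the array file names, so surgery and run cannot be told apart in any TAC against basal comparison, and the day of basal KO 3 differs from that of the remaining basal arrays. Heart muscle markers were present: the mean log2 value of 10 cardiomyocyte genes was 13.98 to 14.12 in TAC KO, 13.80 to 14.21 in TAC WT, 14.06 to 14.09 in basal KO and 14.05 to 14.12 in basal WT. In this bulk tissue, fewer cells of a type and less RNA per cell cannot be told apart.

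Of the 36 genes, 34 had a probe set above the filter (log2 over 5.75 in at least 3 arrays) and all 34 exceeded it in all 14 arrays. The exceptions were Psma8, the testis form of an alpha subunit, which read 4.31 to 5.17 over the arrays, and Psmb11, the thymus form of a beta subunit, which read 3.89 to 4.58. Both stayed under the filter in every array. The tests below therefore cover 14 genes of the 20S core and 20 of the 19S particle. Of these, 17 had more than 1 kept probe set, and a call refers to the probe set that stood for the gene, the one with the highest mean, unless another is named.

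Proteasome subunit RNA was higher after 3 days of TAC than in basal hearts in both genotypes, and no subunit was lower past the threshold on the probe set that stood for the gene. In KO hearts 18 of 34 subunits rose, 8 of 14 in the 20S core and 10 of 20 in the 19S particle, where 22.7% of all 12261 genes tested were higher and 21.8% lower (44.5% called in all). In WT hearts 17 of 34 rose, 8 of 14 in the 20S core and 9 of 20 in the 19S particle, where 26.9% of all genes were higher and 23.8% lower (50.7% in all; 3299 higher and 2916 lower, against 2567 and 3685 after quantile normalization). The median difference over the tested 20S genes was 0.28 in KO and 0.32 in WT on the log2 scale, and over the 19S genes 0.36 in KO and 0.24 in WT, beside medians over all genes of -0.02 in KO and 0.02 in WT. A gene was called with a limma adjusted p under 0.05 over all genes tested. Leaving out basal WT 2 or basal WT 3 lowered the 20S count in WT to 5, and leaving out basal KO 2 lowered that in KO to 5. The 19S count fell to 6 in WT without basal WT 2 and to 7 in KO without basal KO 2. After quantile normalization, which moved the median of all genes in WT to -0.10, the 20S count was 7 in KO and 5 in WT, the 19S count of higher genes was 7 in KO and 8 in WT, and the medians in WT were 0.16 for the 20S and 0.065 for the 19S. Psmd3 was then called lower in both genotypes and Psmd9 in WT.

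Array by array, the mean over the 34 subunits was 10.86, 10.98, 11.01 and 11.22 in TAC KO, 10.89, 10.88, 11.09 and 11.05 in TAC WT, 10.66, 10.63 and 10.64 in basal KO, and 10.70, 10.52 and 10.61 in basal WT. All TAC arrays lay above all basal arrays. TAC KO 4 was the highest TAC KO array for 31 of the 34 subunits and TAC KO 1 the lowest for 28, so most subunits shared the order of these arrays. Among TAC WT arrays, TAC WT 3 was highest for 19 subunits and TAC WT 4 for 12. In basal WT, the first array was highest for 25 subunits and the second lowest for 26. For 20 subunits every TAC KO array lay above every basal KO array, and for 22 every TAC WT array lay above every basal WT array, beside 27.7% of all genes tested in KO and 25.5% in WT. Without TAC KO 4, 7 of 14 20S and 7 of 20 19S genes rose in KO, and without TAC WT 3, 7 of 14 and 8 of 20 rose in WT.

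**Figure D1:**
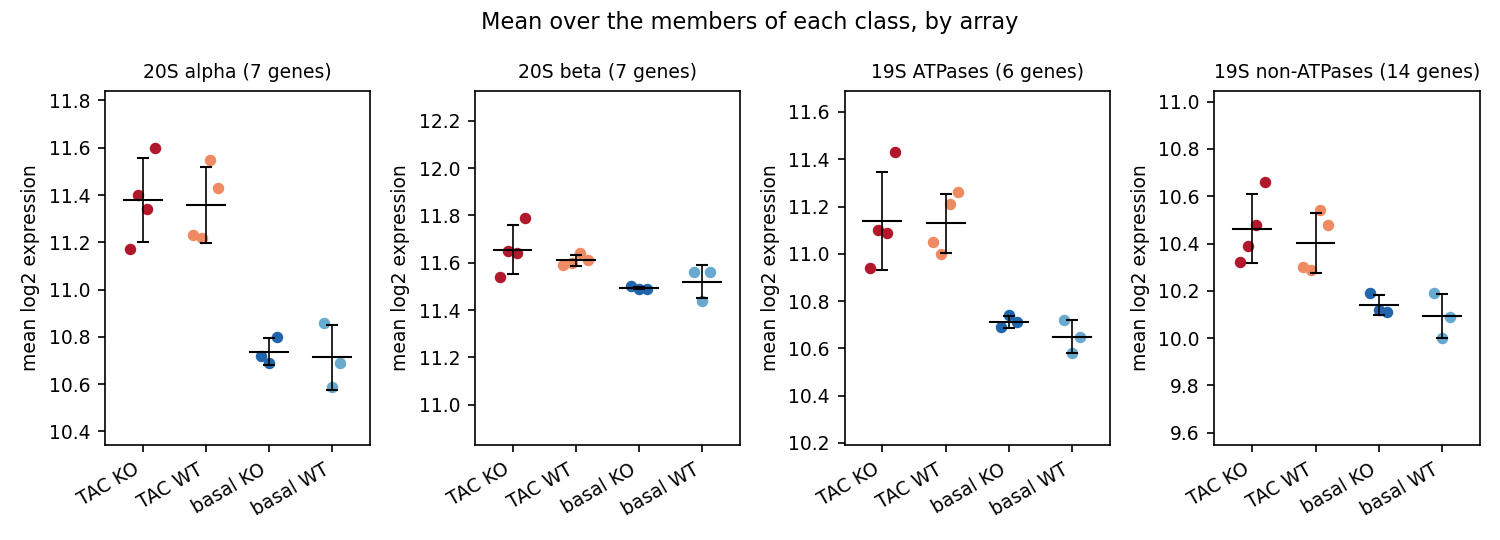
Mean log2 expression over the subunits of each class in every array (points), with the mean and SD of each group (lines), in TAC KO, TAC WT, basal KO and basal WT from left to right. The alpha panel has the widest gap, with TAC arrays at 11.17 to 11.60 and basal arrays at 10.59 to 10.86, while the beta panel has TAC arrays at 11.54 to 11.79 and basal arrays at 11.44 to 11.56.

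The division of the core into rings was made after seeing the data and carries no test. Of the 7 genes of the outer alpha ring tested, 6 rose in KO hearts and all 7 in WT hearts, with a median difference of 0.55 in KO and 0.57 in WT. Beside these, 22.7% of all genes tested were higher in KO and 26.9% in WT. Psma6 was the alpha gene that did not pass in KO (0.23, adjusted p = 0.133, against 0.33, adjusted p = 0.0347, in WT), but its other well-expressed probe set was higher in both genotypes (0.38, adjusted p = 0.0172, in KO and 0.37, adjusted p = 0.0173, in WT). The probe set that stood for Psma6 is of a class that can bind other transcripts. Further kept probe sets of Psma1, Psma3 and Psma7 did not pass in either genotype. The mean over the 7 genes was 11.17 to 11.60 in TAC KO and 11.22 to 11.55 in TAC WT, above 10.69 to 10.80 in basal KO and 10.59 to 10.86 in basal WT.

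On the probe sets that stood for the genes, Psma5, a subunit of the alpha ring, had the smallest p of all subunits in both genotypes. Its log2 values were 11.14, 11.30, 11.27 and 11.50 in TAC KO, 11.09, 11.04, 11.43 and 11.31 in TAC WT, 10.16, 10.18 and 10.04 in basal KO, and 10.23, 9.91 and 10.06 in basal WT. Every TAC array was above every basal array, with a gap wider than the range within any group. The difference was 2.26-fold in KO (log2 1.18 ± 0.12 SE, adjusted p = 8.66e-05) and 2.22-fold in WT (1.15 ± 0.12, adjusted p = 6.55e-05). Its other probe set was also higher, by 0.76 in KO and 0.72 in WT.

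Psma7, also of the alpha ring, read 10.90, 11.17, 11.04 and 11.28 in TAC KO, 10.82, 10.86, 11.22 and 11.03 in TAC WT, 10.19, 10.09 and 10.31 in basal KO, and 10.49, 10.01 and 10.17 in basal WT. No TAC array overlapped with a basal array. The difference was 0.90 ± 0.14 (SE) in KO (adjusted p = 0.000541) and 0.76 ± 0.14 in WT (adjusted p = 0.000967). A second Psma7 probe set moved less, by 0.37 in KO and 0.32 in WT, with adjusted p = 0.0627 and 0.0909.

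Psma3, an alpha subunit of the gated channel, read 11.74, 12.07, 11.94 and 12.39 in TAC KO, 11.78, 11.77, 12.25 and 12.19 in TAC WT, 11.28, 11.18 and 11.38 in basal KO, and 11.27, 11.17 and 11.23 in basal WT. TAC arrays were spread more widely than basal arrays and lay above all of them. The difference was 0.76 ± 0.16 (SE) in KO (limma adjusted p = 0.00259) and 0.77 ± 0.16 in WT (adjusted p = 0.00175), and the mean of its probe sets gave 0.23 in KO with adjusted p = 0.143.

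Psma2, another alpha subunit, read 11.63, 11.74, 11.83 and 12.04 in TAC KO, 11.60, 11.64, 11.84 and 11.85 in TAC WT, 11.27, 11.21 and 11.29 in basal KO, and 11.34, 11.02 and 11.18 in basal WT. Every TAC array lay above every basal array. The difference was 0.55 ± 0.12 (SE) in KO (limma adjusted p = 0.00279) and 0.55 ± 0.12 in WT (adjusted p = 0.00222). Psma1 rose by 0.42 in KO and 0.57 in WT, and Psma4 by 0.47 in KO and 0.37 in WT.

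**Figure D2:**
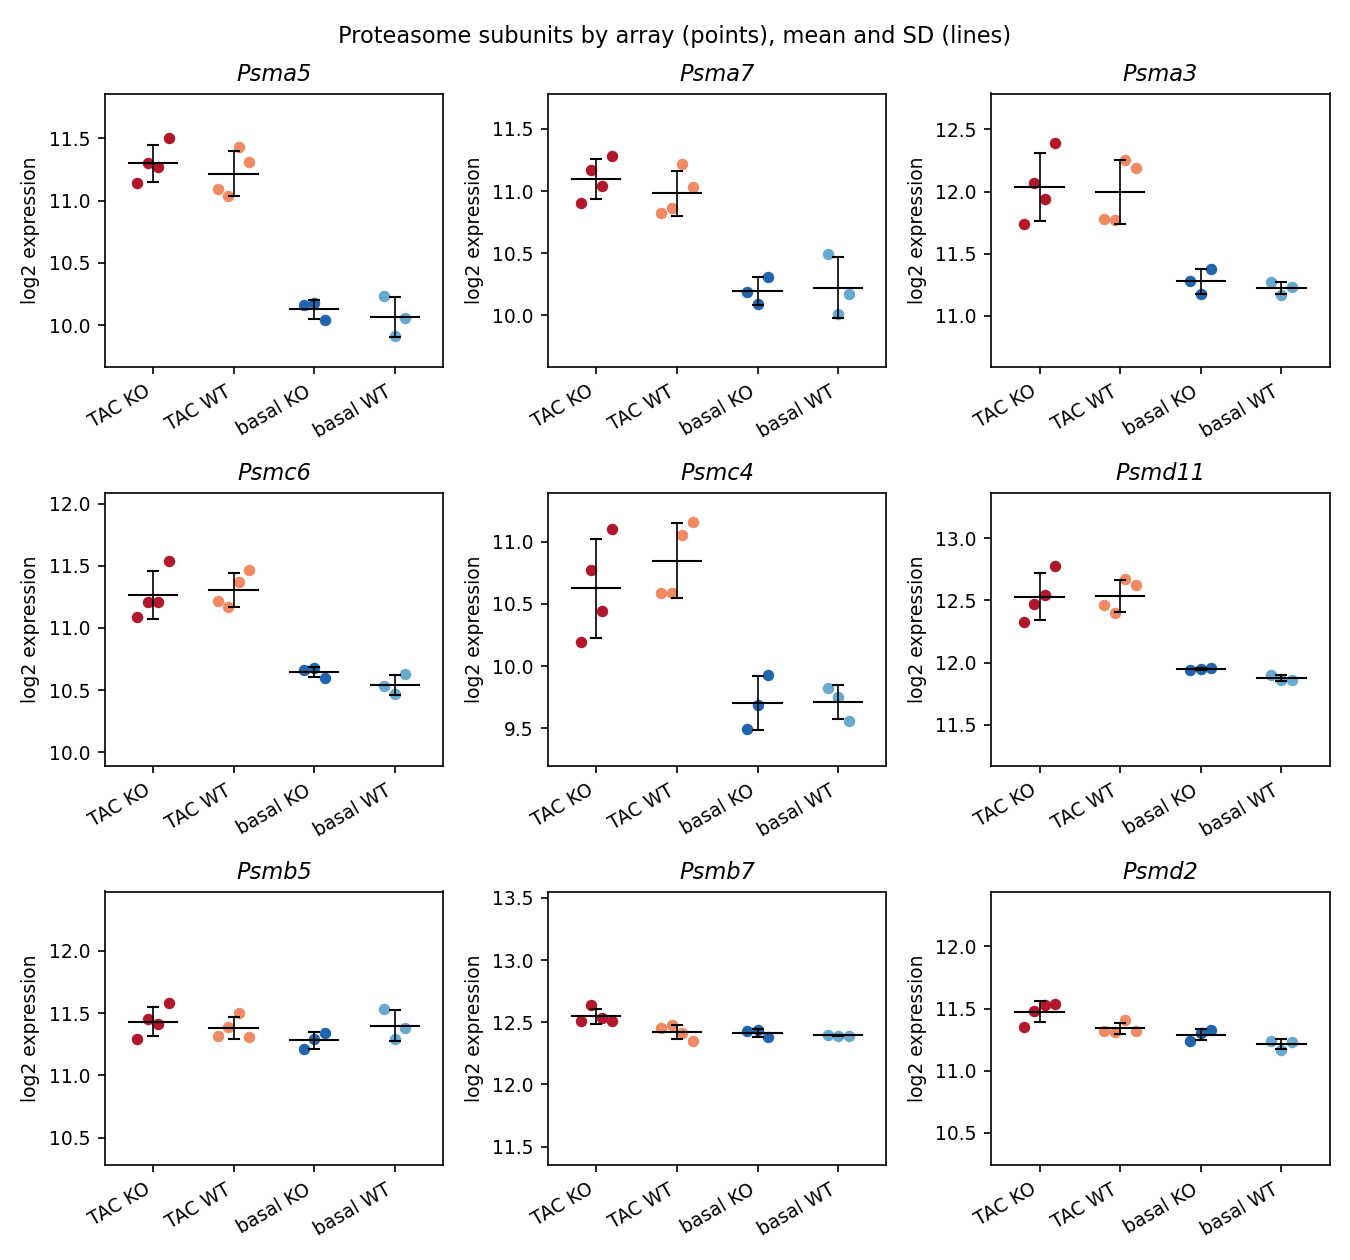
Log2 expression of 9 proteasome subunits in every array (points), with the mean and SD of each group (lines), in TAC KO, TAC WT, basal KO and basal WT from left to right. In the upper 6 panels all TAC arrays lie above all basal arrays, as for Psma5 with 11.04 to 11.50 after TAC and 9.91 to 10.23 in basal hearts, while the lower 3 panels (Psmb5, Psmb7, Psmd2) show values close together in all groups.

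The inner beta ring, which holds the proteolytic sites, changed less than the alpha ring. Of the 7 beta genes tested, 2 rose in KO hearts (Psmb4 and Psmb6) and 1 in WT hearts (Psmb6), with a median difference of 0.14 in KO and 0.03 in WT (0.051 in KO and -0.061 in WT after quantile normalization). These are 28.6% of the beta genes in KO and 14.3% in WT, beside 22.7% and 26.9% of all genes tested. The beta counts therefore do not stand apart from those of all genes. The mean over the 7 genes was 11.54 to 11.79 in TAC KO and 11.59 to 11.64 in TAC WT, against 11.49 to 11.50 in basal KO and 11.44 to 11.56 in basal WT. Averaged over genes, alpha exceeded beta in its TAC difference by 0.48 in KO and 0.56 in WT, and over the alternatives by 0.24 to 0.52 in KO and 0.32 to 0.61 in WT, lowest with probe sets averaged by gene.

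Psmb6, the catalytic subunit of caspase-like activity, read 11.53, 11.66, 11.60 and 11.86 in TAC KO, 11.60, 11.67, 11.75 and 11.70 in TAC WT, 11.34, 11.28 and 11.36 in basal KO, and 11.50, 11.26 and 11.37 in basal WT. TAC arrays lay above basal arrays of the same genotype by small margins. Its difference was 0.34 ± 0.10 (SE) in KO (limma adjusted p = 0.0152) and 0.30 ± 0.10 in WT (adjusted p = 0.0209), and it did not pass in WT without basal WT 2 or basal WT 3, nor in KO without basal KO 2.

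Psmb5, the catalytic subunit of chymotrypsin-like activity, read 11.29, 11.45, 11.41 and 11.58 in TAC KO, 11.32, 11.39, 11.50 and 11.31 in TAC WT, 11.21, 11.29 and 11.34 in basal KO, and 11.53, 11.29 and 11.38 in basal WT. All 4 groups overlapped. The difference was 0.15 in KO (limma adjusted p = 0.215) and -0.02 in WT (adjusted p = 0.874). Psmb7, the catalytic subunit of trypsin-like activity, differed by 0.13 in KO and 0.03 in WT, with neither past the threshold.

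Psmb4, a non-catalytic beta subunit that takes part in core assembly, differed by 0.23 in KO (limma adjusted p = 0.0380) and 0.18 in WT (adjusted p = 0.0845). Its KO call was lost in 9 of 25 alternatives. The other Psmb4 probe set, of a class that can bind other transcripts, was higher by 0.98 in KO and 1.32 in WT. Psmb1, Psmb2 and Psmb3, which are structural, ranged from 0.06 to 0.14 in KO and from -0.04 to 0.19 in WT, and none passed on the probe set that stood for the gene. A further Psmb1 probe set, of a class that can bind other transcripts, was higher by 0.46 in KO and 0.59 in WT (limma adjusted p = 0.0123 and 0.00267). It averaged under the filter in basal KO (5.72) and basal WT (5.58).

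**Figure D3:**
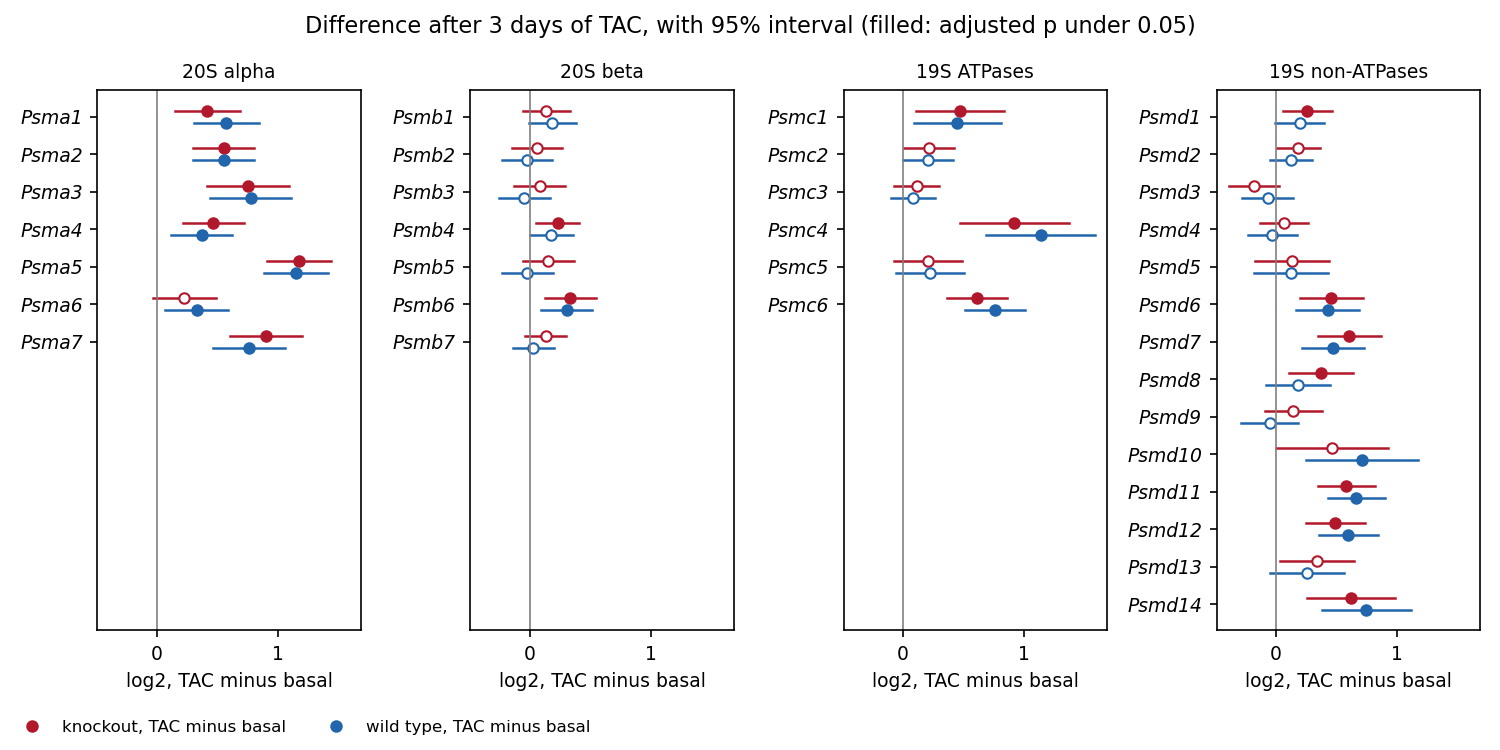
Difference between TAC and basal hearts on the log2 scale for each tested subunit, with its 95% interval, in KO (red) above WT (blue) and filled where the limma adjusted p was under 0.05. All 7 alpha genes are filled in WT and 6 in KO, against 1 and 2 of the 7 beta genes, and the ATPases span 0.08 for Psmc3 to 1.14 for Psmc4 in WT.

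Among the 6 ATPases of the 19S base, Psmc1, Psmc4 and Psmc6 rose in both genotypes and Psmc2, Psmc3 and Psmc5 passed in neither on the probe set that stood for the gene. A second Psmc2 probe set, of a class that can bind other transcripts, was higher in WT by 0.25 (limma adjusted p = 0.0426) and read 0.15 in KO (adjusted p = 0.215). The median difference was 0.35 in KO and 0.34 in WT, where 22.7% and 26.9% of all genes tested were higher. These 6 proteins stand in equal number in the ring that unfolds the substrate.

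Psmc4, the Rpt3 ATPase, read 10.19, 10.77, 10.44 and 11.10 in TAC KO, 10.59, 10.59, 11.05 and 11.16 in TAC WT, 9.49, 9.69 and 9.93 in basal KO, and 9.82, 9.75 and 9.56 in basal WT. TAC arrays were above basal arrays, and TAC KO arrays were the most spread. The difference was 1.89-fold in KO (0.92 ± 0.21 SE, limma adjusted p = 0.00398) and 2.20-fold in WT (1.14 ± 0.21, adjusted p = 0.000967). Its other probe set was higher by 0.53 in KO and 0.43 in WT.

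Psmc6, the Rpt4 ATPase, whose promoter holds an ARE core, read 11.09, 11.21, 11.21 and 11.54 in TAC KO, 11.22, 11.17, 11.37 and 11.47 in TAC WT, 10.66, 10.68 and 10.60 in basal KO, and 10.53, 10.47 and 10.63 in basal WT. TAC arrays stood well above basal arrays. The difference was 0.62 ± 0.11 (SE) in KO (limma adjusted p = 0.00144) and 0.76 ± 0.11 in WT (adjusted p = 0.000312). A second probe set, above the filter in all arrays but of a class that can bind other transcripts, was higher by 1.15 in KO and 1.28 in WT. The remaining probe set passed the filter through the TAC arrays, and averaged 6.46 in TAC KO and 6.85 in TAC WT against 5.58 in basal KO and 5.47 in basal WT, both under the filter.

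Psmc1, the Rpt2 ATPase, differed by 0.48 in KO and 0.45 in WT (limma adjusted p = 0.0353 and 0.0388), but its call was lost in 6 alternatives in KO and 8 in WT. For Psmc2, Psmc3 and Psmc5, differences ran from 0.11 to 0.22 in KO and from 0.08 to 0.23 in WT.

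Of the 14 non-ATPase subunits and assembly factors, 7 rose in KO hearts and 6 in WT hearts, and 5 of these were called in both: Psmd6, Psmd7, Psmd11, Psmd12 and Psmd14. The median difference was 0.36 in KO and 0.23 in WT, where 22.7% and 26.9% of all genes tested were higher. The 5 are subunits of the lid, the subcomplex that removes ubiquitin, but the lid did not rise as a whole. On the probe sets that stood for the genes, the lid subunits Psmd3 (-0.18 in KO and -0.07 in WT) and Psmd13 (0.34 and 0.26) passed in neither genotype. A further Psmd13 probe set, of a class that can bind other transcripts, was higher in KO (0.505, limma adjusted p = 0.0150). Another was higher in WT (0.66, limma adjusted p = 0.00671). With the mean of its probe sets, Psmd13 was called higher in both genotypes. The lid subunit Psmd8 passed in KO alone.

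Psmd11, the lid subunit Rpn6, read 12.33, 12.47, 12.54 and 12.78 in TAC KO, 12.46, 12.40, 12.67 and 12.62 in TAC WT, 11.94, 11.95 and 11.96 in basal KO, and 11.90, 11.86 and 11.86 in basal WT. Basal arrays were tightly grouped and far below the TAC arrays. The difference was 0.58 ± 0.11 (SE) in KO (limma adjusted p = 0.00152) and 0.66 ± 0.11 in WT (adjusted p = 0.000534). The probe set that stood for Psmd11 is of a class that can bind other transcripts. The 5 kept Psmd11 probe sets did not move together: in WT 3 were higher, 1 did not pass and 1, which averaged under the filter in TAC WT, was lower by 0.38, and in KO 2 were higher and 3 did not pass.

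Psmd12, the lid subunit Rpn5, read 11.07, 11.17, 11.22 and 11.38 in TAC KO, 11.18, 11.08, 11.19 and 11.40 in TAC WT, 10.83, 10.73 and 10.60 in basal KO, and 10.79, 10.51 and 10.54 in basal WT. No TAC array overlapped with a basal array. The difference was 0.49 ± 0.11 (SE) in KO (limma adjusted p = 0.00459) and 0.60 ± 0.11 in WT (adjusted p = 0.00119).

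Psmd7, the lid subunit Rpn8, read 10.42, 10.35, 10.43 and 10.63 in TAC KO, 10.32, 10.23, 10.58 and 10.48 in TAC WT, 9.78, 9.88 and 9.89 in basal KO, and 10.17, 9.76 and 9.86 in basal WT. TAC arrays did not overlap with basal arrays, although basal WT 1 lay close to the lowest TAC WT array. The difference was 0.61 ± 0.12 (SE) in KO (limma adjusted p = 0.00199) and 0.47 ± 0.12 in WT (adjusted p = 0.00628), and with the mean of its probe sets neither passed (0.22 in KO and 0.16 in WT).

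Psmd14, the lid deubiquitinase Rpn11, rose by 0.62 in KO and 0.75 in WT, and Psmd6, the lid subunit Rpn7, by 0.46 in KO and 0.43 in WT. The largest scaffold subunits moved less, with Psmd1 (Rpn2) at 0.26 in KO (limma adjusted p = 0.0396) and 0.20 in WT (adjusted p = 0.0980), and Psmd2 (Rpn1) at 0.19 in KO and 0.13 in WT with neither past the threshold. Psmd8, the lid subunit Rpn12, passed in KO (0.37, adjusted p = 0.0249) and read 0.18 in WT (adjusted p = 0.221). Psmd4, the ubiquitin receptor Rpn10, differed by 0.07 in KO and -0.03 in WT, Psmd3 (Rpn3) by -0.18 and -0.07, and Psmd13 (Rpn9) by 0.34 and 0.26.

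The assembly chaperones of the 19S base, which leave before the particle is complete, did not follow 1 pattern. Psmd10 (gankyrin) rose in WT (0.71, limma adjusted p = 0.0151) and read 0.46 in KO (adjusted p = 0.0928), with TAC WT 3 at 8.71 the highest array. Psmd5 read 0.14 in KO and 0.12 in WT. Psmd9 read 0.14 in KO and -0.05 in WT, and its second probe set, which averaged under the filter in both TAC groups, was lower by 0.41 in KO and 0.64 in WT.

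Across both TAC comparisons, 15 subunits were called higher in both genotypes and 20 in either. Of all genes tested, 22.7% were higher in KO and 26.9% in WT. The share of all genes called in both genotypes or in either was not computed, so this overlap cannot be judged against it. Psmb4, Psmd1 and Psmd8 were called in KO and not in WT, and Psma6 and Psmd10 in WT and not in KO, on the probe set that stood for the gene. For none of them did the difference between genotypes in the TAC effect pass the test given below. Of the 5 genes with an ARE core in their window, Psmb6, Psmc6 and Psmd12 were among the 15 and Psmb5 and Psmd9 were not.

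Loss of Hspb8 made no difference past the threshold to any proteasome subunit. After TAC, 0 of 34 subunits were called between KO and WT with limma and 0 had an unadjusted p under 0.05, where 0.00816% of all genes were called, which is 1 gene, and 8.14% had such an unadjusted p. Differences ran from -0.22 (Psmc4) to 0.15 (Psmc1), and the 95% intervals reached from -0.64 to 0.48. Median half-width of an interval was 0.23. In basal hearts, 0 of 34 were called with limma and 0 had an unadjusted p under 0.05, where 0% of all genes were called and 5.77% had such an unadjusted p, and the differences ran from -0.12 to 0.26 with intervals from -0.48 to 0.75. For the difference of the KO effects (TAC minus basal), 0 of 34 were called and 0 had an unadjusted p under 0.05, where 0% of all genes were called and 7.76% had such an unadjusted p, with values from -0.25 (Psmd10) to 0.19 (Psmd9) and intervals from -0.90 to 0.56. All these counts, ranges and shares are of the probe sets that stood for the genes. For Hspb8 this was the one whose class can bind other transcripts, so the targeted gene was itself not among the genes called. The Hspb8 probe set given above by value differed by -6.78 after TAC and -6.84 in basal hearts. Other kept probe sets of the subunits had a limma unadjusted p under 0.05 after TAC for Psmc6, Psma1 and Psmb1 (0.0212 to 0.0434). In basal hearts this held for Psmd11 (0.00761), and for the difference of the KO effects for Psmd11, Psmb1 and Psmc6 (0.0314 to 0.0462). None of these was called (smallest limma adjusted p = 0.500). With array weights, Psmd2 and Psmd8 were called higher in TAC KO than in TAC WT (0.18 and 0.30, adjusted p = 0.0455 and 0.0462), in a fit that called 2884 of the 12261 genes.

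The subunits nearest to a call on the probe set that stood for the gene are given here by value. Psmd2, the Rpn1 scaffold, read 11.35, 11.48, 11.53 and 11.54 in TAC KO against 11.32, 11.31, 11.41 and 11.32 in TAC WT. The groups overlapped at 1 TAC WT array, with a difference of 0.14 ± 0.08 (SE, limma adjusted p = 0.711). Psmb7 read 12.51, 12.64, 12.53 and 12.51 in TAC KO against 12.45, 12.48, 12.41 and 12.35 in TAC WT, which did not overlap, with a difference of 0.12 ± 0.07 (limma adjusted p = 0.715). KO and WT arrays did not overlap for 2 of 34 subunits after TAC and for 3 of 34 in basal hearts. The share of all genes without such overlap was not computed.

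In basal hearts the smallest p belonged to Psmb5 in the core, with 11.21, 11.29 and 11.34 in basal KO against 11.53, 11.29 and 11.38 in basal WT (difference -0.12, limma adjusted p = 0.998). The smallest in the 19S particle was that of Psmd10, with 8.04, 7.25 and 7.66 in basal KO against 7.61, 7.28 and 7.29 in basal WT (0.26, adjusted p = 0.998). Both pairs of groups overlapped. A Psmd11 probe set that did not stand for its gene had a smaller p. It read 10.45, 10.55 and 10.34 in basal KO against 10.12, 10.03 and 10.15 in basal WT (0.35, limma unadjusted p = 0.00761, adjusted p = 0.774). For the difference of the KO effects, Psmb5 had 0.17 (limma adjusted p = 0.831) and Psmd9 0.19 (adjusted p = 0.831).

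**Figure D4:**
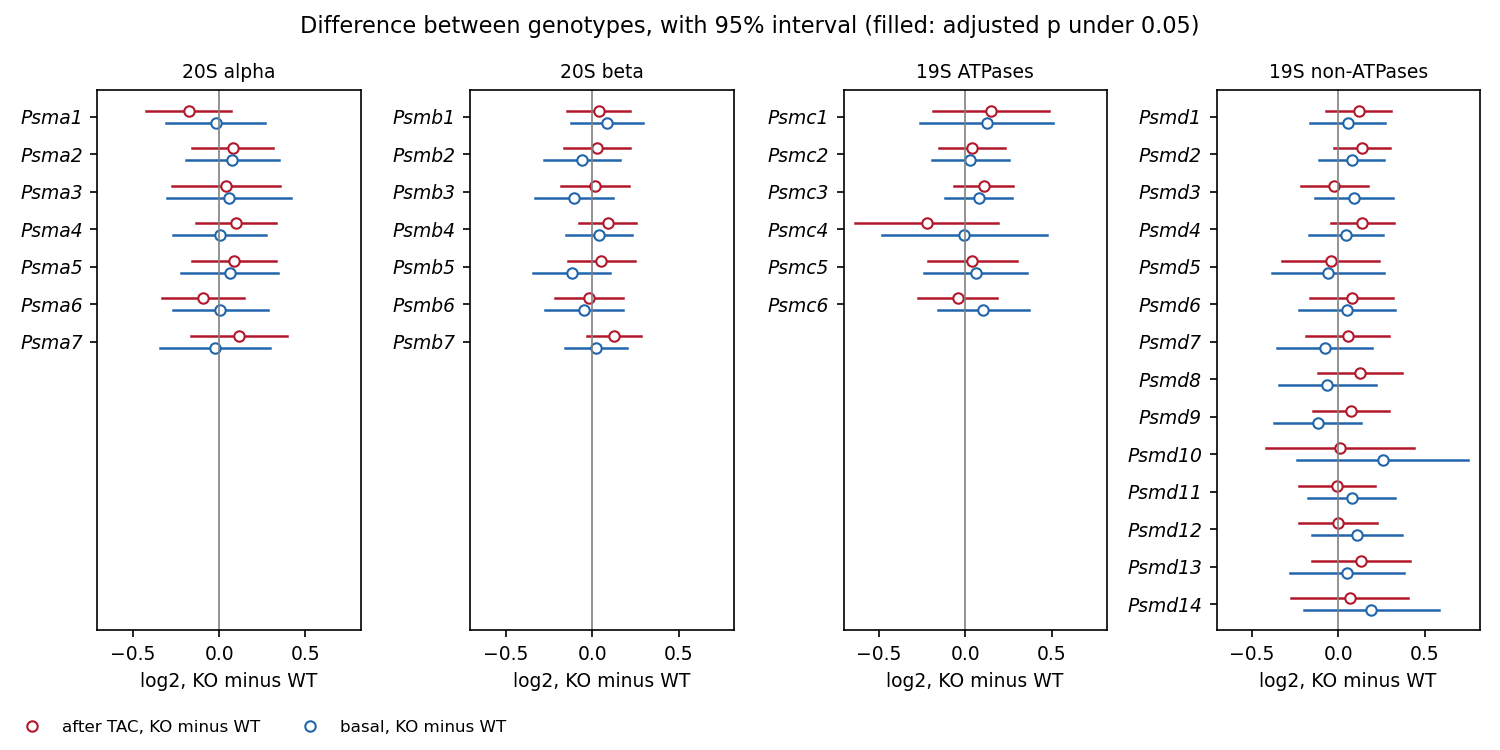
Difference between KO and WT hearts on the log2 scale for each tested subunit, with its 95% interval, after TAC (red) above basal (blue), filled where the limma adjusted p was under 0.05. No point is filled: differences run from -0.22 to 0.15 after TAC and from -0.12 to 0.26 in basal hearts.

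Genes that act beside the proteasome showed several directions. Of 7 tested genes for other subunits and bound proteins, 4 rose in KO and 3 in WT: the deubiquitinases Usp14 (0.72 in KO and 0.83 in WT) and Uchl5 (0.60 and 0.71) and the thioredoxin-like Txnl1 (1.03 and 1.02), each in both genotypes, and Sem1, a small lid subunit, in KO (0.22, limma adjusted p = 0.0383). Among 5 assembly chaperones of the core, Psmg2 rose in WT (0.58) and read 0.19 in KO, and Pomp rose in KO (0.31) and read 0.24 in WT. Of the 4 activators and inhibitor genes tested, Psme1, which encodes a subunit of the 11S activator, was lower by 0.77 in KO and 0.59 in WT, and the inhibitor Psmf1 was lower by 0.28 in KO and 0.35 in WT.

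The immunoproteasome subunits replace the catalytic beta subunits when interferon signals. None of the 3 was called in KO (Psmb8 0.40, Psmb9 -0.07, Psmb10 -0.15) and all 3 rose in WT (1.37, 1.35 and 0.64), but the difference of the KO effects did not pass over all genes (limma adjusted p = 0.498 to 0.629, unadjusted p = 0.00770 to 0.0408). In TAC WT 4 the 3 genes averaged 8.41, against 9.49 to 9.71 in the other TAC WT arrays, while Psma5 in that array read 11.31.

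Nfe2l1, the regulator of subunit transcription, was lower by 0.49 in KO (limma adjusted p = 0.0439) and read -0.40 in WT (adjusted p = 0.0842), and Nfe2l2, Ngly1 and Vcp passed in neither. Among 7 muscle ubiquitin ligases, Asb2 (by 1.07 in KO and 0.86 in WT) and Stub1 (by 0.27 and 0.35) were lower in both genotypes, Fbxo32 (atrogin-1) was lower in WT by 1.26 and read -0.99 in KO (limma adjusted p = 0.0744), and Fbxo30 was higher in WT by 0.63 and read 0.26 in KO (adjusted p = 0.0789). Trim63 (MuRF1), Trim54 and Mdm2 passed in neither. Of 4 ubiquitin shuttle genes tested, Ubqln1 and Ubqln2 rose in WT (0.24 and 0.53) and read -0.059 and 0.24 in KO, and Ubqln4 was lower in KO by 0.54 and read -0.17 in WT. Sqstm1, the p62 autophagy receptor, was lower by 0.50 in KO and 0.71 in WT, and Bag3, Zfand2a and Zfand5 passed in neither.

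Markers of other cells moved in the same arrays. The mean over 14 macrophage markers was 9.47 to 9.78 in TAC KO, 8.54 to 10.43 in TAC WT, 8.27 to 8.39 in basal KO and 8.05 to 8.17 in basal WT, and 11 of the 14 rose in KO and 10 in WT, with 1 lower. Cx3cr1, Fcgr1 and Itgam averaged under the filter in both basal groups. The mean over 9 fibroblast markers was 11.70 to 11.83 in TAC KO, 10.86 to 11.49 in TAC WT, 10.58 to 10.83 in basal KO and 9.95 to 10.45 in basal WT, with 6 higher in each genotype and 2 lower in WT. All 6 cycling cell genes were called higher in both genotypes, but 4 averaged under the filter in basal KO and 5 in basal WT, so these passed the filter through the TAC arrays. The list means were 7.70 to 8.43 in TAC KO, 5.74 to 9.41 in TAC WT, 5.22 to 5.49 in basal KO and 5.17 to 5.40 in basal WT. Of the 10 cardiomyocyte markers, 0 passed in KO and 1 rose in WT. Endothelial markers were lower for 2 of 7 in KO and 3 of 7 in WT, 2 of 6 smooth muscle and pericyte markers rose and 1 was lower in each genotype, and of the 7 lymphocyte markers Cd3e alone was tested and was lower in WT. The part of these cells in the subunit differences was not tested. In TAC WT 1, the TAC array with the lowest macrophage (8.54) and cycling cell (5.74) means, the mean over the 34 subunits was 10.89. All of these means were above those of every basal array. TAC WT 1 was the lowest TAC WT array for 13 subunits. TAC WT 3, with the highest macrophage (10.43) and cycling cell (9.41) means, had the highest value of 19 subunits among the TAC WT arrays.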

How the data were processed

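The log2 expression values per probe set (Affymetrix Mouse430_2) were made by the authors from probe intensities with RMA, per the submitters' processing notes, and used as deposited; neither its version nor whether the arrays went through it in 1 run is given in the sources used here. The number of arrays limits the precision.

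Symbols came from the platform annotation, updated through RefSeq (GRCm38.p6): 34958 probe sets had 1 symbol, 932 several and 9211 none. Probe sets above the table's median, 5.75, in at least 3 of 14 arrays were kept, and the one with the highest mean stood for its gene (12261 genes). The groups came from the sample titles and entered 1 linear model with 10 residual degrees of freedom (R 4.3.3, limma 3.58.1, eBayes), which was tested on simulated data. Adjusted p-values are limma's, with Benjamini-Hochberg adjustment over all genes tested (over all kept probe sets where single probe sets are given), and SE is the model's.

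Members, lists, tests and alternatives were chosen with earlier results of these data known. Values in every array are given for the 4 smallest-p members of the 20S and of the 19S in each TAC comparison, for the smallest-p member of each where KO and WT were compared, and, chosen after their values were seen, for Psmb6; Psmb5 was chosen likewise. Up to 3 genes per pathway list and TAC comparison were named by p; others, named because the lists are small, were chosen after their values were seen. The 25 alternatives are no filter, a stricter one (7.7), averaged probe sets, every probe set, no probe sets of classes that can bind other transcripts, quantile normalization, median centring, only the arrays compared, an eBayes trend with robust fitting, array weights, a replicate block and leaving out each array. The ring classes were added after seeing the data.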

Additional observations from a re-analysis of the deposited data

Results flagged for a closer look

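Each of the 32 sets of 4 arrays behind a named member was searched for an array far from the others by Dixon's criterion, which by chance flags about 1 in 20 groups; 3 were found. Psmb7 read 12.64 in TAC KO 2, against 12.51 to 12.53 in the other TAC KO arrays. Psmd2 read 11.41 in TAC WT 3, against 11.31 to 11.32 in the other TAC WT arrays. Psmd9 read 8.39 in TAC KO 4, against 7.98 to 8.05 in the other TAC KO arrays. TAC WT 3 also had the highest macrophage marker mean of all arrays (10.43), and TAC KO 4 was the highest TAC KO array for 31 of 34 subunits. Without the array named, the difference between TAC KO and TAC WT was 0.09 for Psmb7 and 0.16 for Psmd2, and the difference of the KO effects for Psmd9 was 0.10.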

How the results depend on the processing

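Of the 18 subunits called in KO and 17 in WT after TAC, 10 in each genotype kept the call in all 25 alternatives; Psma2, Psma5, Psma7, Psmc4, Psmc6, Psmd11, Psmd12 and Psmd14 did so in both. Quantile normalization called 5 20S genes in WT and gave medians of 0.16 (20S), 0.065 (19S), 0.40 (alpha) and -0.061 (beta) there and 0.051 (beta) in KO; the median of all genes in WT was then -0.10, against 0.02 for the values as deposited and 0.096 with median centring, and Psmd3 was called lower (-0.27 in KO, -0.25 in WT) as was Psmd9 in WT (-0.24). The alpha median in WT was 0.40 with the mean of probe sets and 0.37 with every probe set, and the beta median in WT was 0.11 with median centring. Beta genes called, 2 in KO and 1 in WT, numbered 1 in KO and 0 in WT with quantile normalization and with the arrays of the comparison alone, and in WT 2 with the mean of probe sets and 3 with every probe set or median centring. The cause of these changes was not tested. With array weights, 2 19S genes were called between TAC KO and TAC WT. Leaving out 1 array gave 5 to 8 20S genes in each genotype (5 without basal WT 2, basal WT 3 or basal KO 2), and 0 to 2 beta genes in KO (0 without basal KO 2) and 0 to 1 in WT (0 without basal WT 2 or basal WT 3). For the 19S it gave 7 to 13 genes called in KO and 6 to 10 in WT (6 without basal WT 2). The ring settings were chosen after seeing the data. With the replicate number as a block, 7 20S and 9 19S genes rose in KO, 6 and 9 in WT, and of beta genes 1 in KO and 0 in WT. Between TAC and basal, deviations of same-numbered arrays correlated little, with r of -0.045 to 0.095 in KO and -0.053 to 0.070 in WT. Between TAC KO and TAC WT they correlated with r of -0.072 to 0.594, and not every array correlated best with its own number. There, r was 0.594 for number 1 and 0.489 for number 4, but also 0.576 between TAC KO 1 and TAC WT 2. These values do not settle whether the numbers pair the TAC arrays. Of the named members' values, Psma3 (0.23, adjusted p = 0.143) and Psmd7 (0.22, adjusted p = 0.112) lost their call in KO with the mean of probe sets, Psmd2 gained one between TAC KO and TAC WT with array weights, and 545 others stayed on their side of the threshold; none changed direction.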
